A study of Sus scrofa with 36 samples.

Results

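The acute phase protein genes followed here are 8 plasma protein genes made by the liver: CRP, HP, HPX, CP, ITIH4, LBP, ORM1 and ALB. Every probe whose gene name, RefSeq accession or description on the array gave a member was taken, and a probe was kept when at least 6 of the 36 arrays had it well above background by the scanner software's call. This gave 50 probes, of which 48 were kept, among 44796 kept probes on the array. The 48 comprised 22 probes for ALB, 7 for HP, 5 for CP, 5 for ITIH4, 4 for CRP, 3 for ORM1, 1 for HPX and 1 for LBP. All 8 genes were thus measured, among 11423 gene symbols with a kept probe.

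Liver RNA of 36 castrated male growing pigs was hybridised singly to 1-colour Agilent pig arrays. The pigs were Large White (LW, n = 12), Creole (CR, n = 12) or their Large White × Creole cross (F1, n = 12). In each breed 6 animals were kept in thermoneutral conditions (TN, 24 °C), and 6 were slaughtered after heat stress (HS). The sample labels give 30 °C for HS, whereas the growth protocol gives 32 °C, kept for 5 days. All 6 groups were offered the same diet in similar pens, each pen holding pigs of a single breed. The study reported lower feed intake under heat stress, so heat and reduced feeding cannot be told apart here. HS pigs were slaughtered after all TN pigs, so the temperature and the day of slaughter cannot be told apart. Littermates and pen mates were present within each breed and are not identified in the labels, so p-values treat all animals as independent and may be too small.

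In the acute phase response, inflammation or infection makes hepatocytes secrete more of some plasma proteins, called positive, and less of others, called negative. Macrophage cytokines, interleukin 6 above all, drive the change through STAT3 and C/EBP factors. Some members recognise microbes (CRP, LBP), others bind haemoglobin, haem or copper (HP, HPX, CP), and ORM1 and ITIH4 are carrier or inhibitor-related glycoproteins. ITIH4 is known in pigs as the major acute phase protein, pig-MAP, and ALB, the main carrier of plasma, is the classical negative member.

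In the RefSeq annotation of the pig assembly Sscrofa11.1, the member genes lie on 7 chromosomes. ORM1 is at chr1:254939154-254943065, HP at chr6:14980382-14985245 and ALB at chr8:69643427-69663152. HPX lies at chr9:3288288-3297051 and LBP at chr17:41398935-41429467. Chromosome 13 holds ITIH4 (chr13:34928455-34948250) and CP (chr13:89396713-89463540). CRP has 2 entries close together, at chr4:90782741-90785051 and chr4:90793361-90801020, and the probes were not assigned between them.

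The probes are 60 bases long and are printed 5′ to 3′ as deposited. The first set carried the breed differences described below, and more than 1 probe is shown for ITIH4 and ORM1 because probes of these genes gave different sizes or signs.
LBP A_72_P236672: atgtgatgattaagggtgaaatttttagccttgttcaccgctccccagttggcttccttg
ITIH4 A_72_P164666: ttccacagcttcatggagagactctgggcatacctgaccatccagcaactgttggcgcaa
ITIH4 A_72_P232272: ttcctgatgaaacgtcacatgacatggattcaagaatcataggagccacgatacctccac
ORM1 A_72_P247587: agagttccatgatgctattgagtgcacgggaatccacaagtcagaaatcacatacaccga
ORM1 O577: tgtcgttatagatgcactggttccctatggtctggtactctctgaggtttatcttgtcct
HP A_72_P568194: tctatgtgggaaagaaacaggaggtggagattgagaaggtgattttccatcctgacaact
HPX A_72_P302769: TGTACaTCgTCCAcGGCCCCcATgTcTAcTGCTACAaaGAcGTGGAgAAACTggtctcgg
The capitals in the HPX probe mark letters shared with the reverse complement of the second HPX probe, O2842. Of 52 aligned letters, 41 matched. Read as deposited, the O2842 probe aligned to it over no more than 6 letters, and it was not kept on these arrays.
O2842 reverse complement: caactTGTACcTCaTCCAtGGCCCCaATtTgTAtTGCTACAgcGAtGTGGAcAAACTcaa
The strand of the ORM1 probe O577 was not determined here. It shared at most 12 matching letters with the other ORM1 probes in either direction, too few to place it. Whether it reports ORM1 RNA was not tested.

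A pair of HP probes differed in 1 of 59 aligned letters, which is printed in capitals, and they are shown because both were lower in CR.
HP A_72_P657000: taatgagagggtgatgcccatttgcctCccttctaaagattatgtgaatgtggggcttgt
HP RefSeq probe: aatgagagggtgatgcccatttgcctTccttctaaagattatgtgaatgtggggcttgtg
Other member probes carried exactly the same letters at different spots, which gave the error of the array itself. The CRP pair (the CRP RefSeq probe and A_72_P302589) differed by -0.02 ± 0.097 (log2, SD, n = 36), where animals within a group differed by an SD of 0.822. The HP pair (O9209 and A_72_P178006) differed by 0.10 ± 0.0643 (SD, n = 36), against an SD of 0.137 between animals of a group. Spot error was thus small against the spread between animals for CRP, and closer to it for HP. Probes of a gene that share letters are not independent measurements, and 22 ALB pairs, 4 HP pairs and 1 pair each of CP, CRP and ITIH4 shared runs of at least 20 letters.

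**Figure D1:**
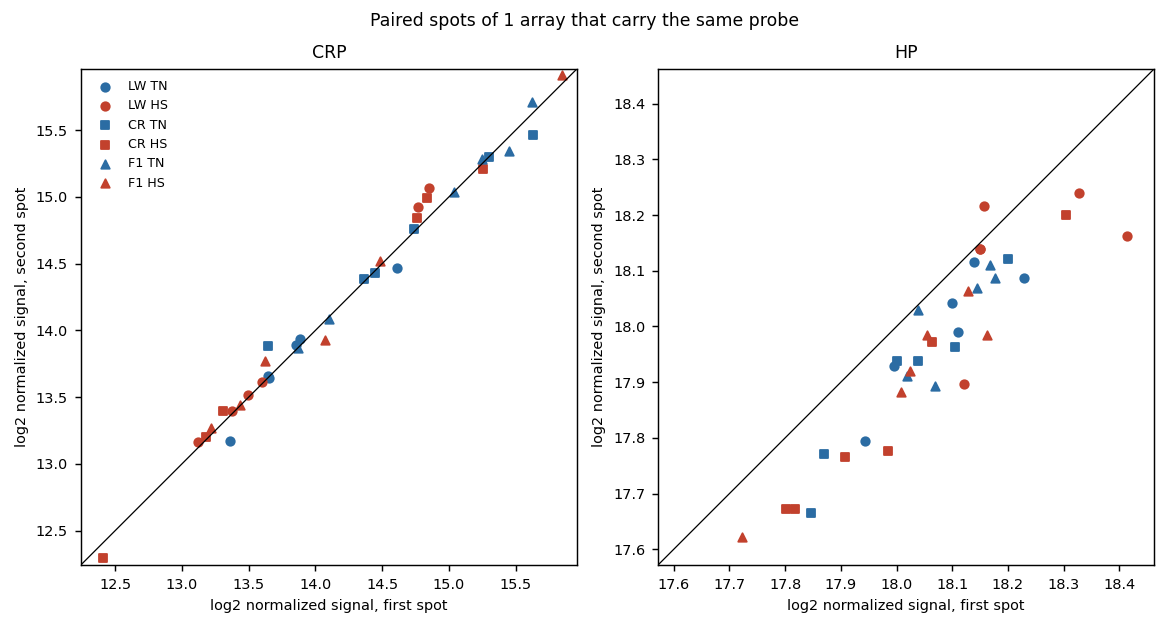
Log2 normalized signal at the paired spots of each array that carry the same probe letters, for CRP (left) and HP (right), 1 symbol per animal. Circles are LW, squares CR and triangles F1, blue is TN and red HS, and the line marks equal signal. The CRP spots lie on the line (mean difference -0.02) and most HP points fall below it (mean difference 0.10).

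The arrays sat on 5 slides, each with equal numbers of TN and HS animals. Of 60306 spots that were not controls, 39644 to 44025 were well above background per array, and no spot was saturated. The first principal component (18.6% of the variance) set LW apart from CR and F1, except that LW TN animals 1 and 6 lay away from the other LW, and F1 HS animals 1 and 2 and F1 TN animal 3 lay towards LW. LW TN animals 1 and 6 scored -4.8 and -3.0 (other LW -44.2 to -24.8), and F1 HS animals 1 and 2 scored -17.0 and -21.3. The sample titles number these LW TN and F1 HS animals in sequence, between the other LW and the other F1. Whether their breed labels were exchanged was not tested, which limits the LW and F1 comparisons. Hepatocyte markers were well detected in every breed, with mean log2 signals over 4 measured markers between 15.70 and 15.95 per LW or CR animal. No probe was found for the other hepatocyte markers CPS1, TAT, ASGR1 and ASGR2. All values below are log2 quantile-normalized signal, a scale on which different probes cannot be set against each other. In counts of animals above or below a mean, HS animals were set against the TN mean of their own breed. CR and F1 animals were set against the LW mean at their own temperature.

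No member probe was called under heat stress. After Benjamini-Hochberg adjustment over all kept probes (limma, two-sided), 0 of 48 were called between HS and TN, where 0.857% of all probes were called, and 3 of 48 passed an unadjusted p of 0.05, where 13.1% of all probes did. The median difference of the 48 probes was 0.01, with 17 below 0. The breed by temperature interaction called 0 member probes, against a background of 0%, with 1 at an unadjusted p of 0.05 and 3.74% in all probes. Within LW, CR and F1 taken alone, no member was called either, where 0%, 0% and 0.00893% of all probes were, and 4, 2 and 1 of 48 passed the unadjusted p, where 5.11%, 7.4% and 9.3% of all probes did.

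**Figure D2:**
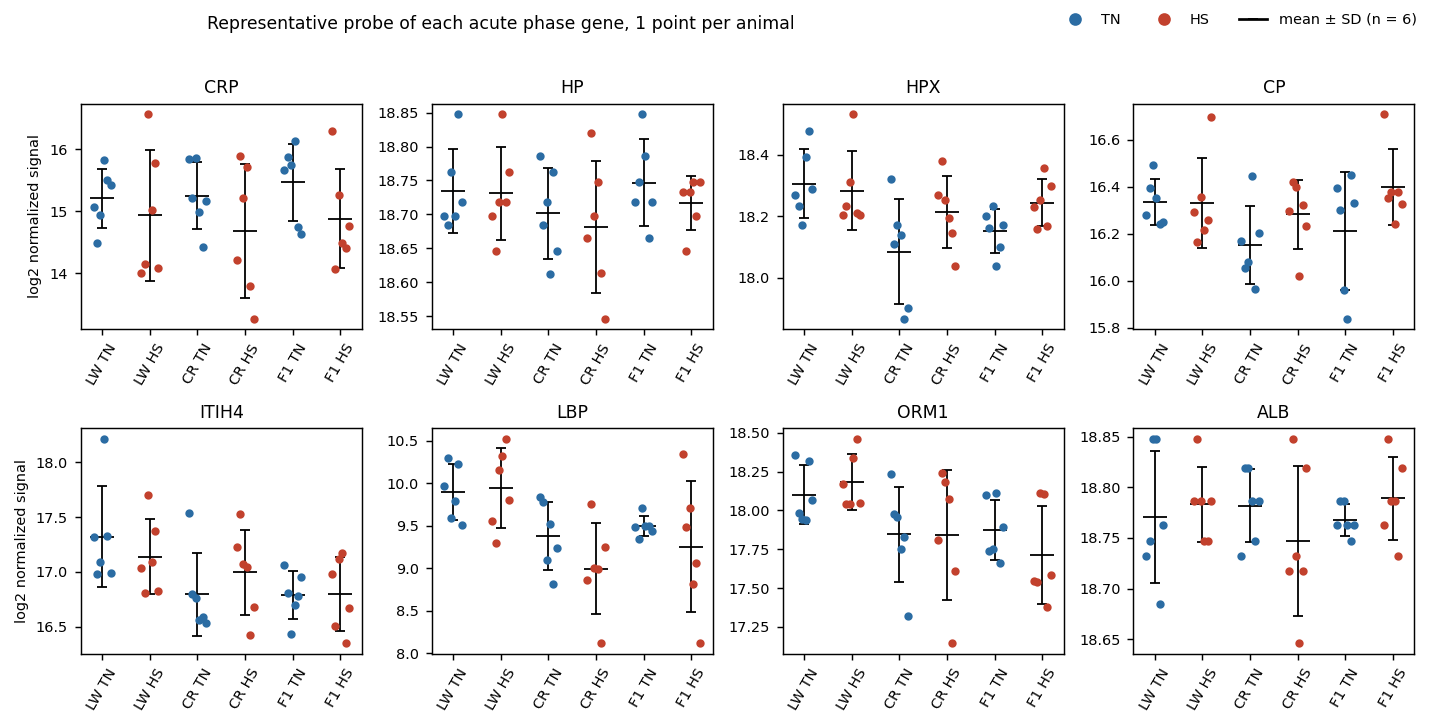
Log2 normalized signal (y axis, its range differs between panels) of the representative probe of each gene, the kept probe with the highest mean, in 6 groups of 6 animals. Points are animals, blue for TN and red for HS, and black bars give the mean ± SD. LBP reached down to 8.11 in both CR HS and F1 HS while LW animals stayed at or above 9.29, and the CRP points spread widest in HS, from 13.27 to 16.57.

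CRP, the pentraxin that binds phosphocholine on microbes and dying cells, had the widest spread of the representative probes between animals. Its signal had a lowest value, median and highest value of 14.43, 15.32 and 16.13 in TN, and of 13.27, 14.62 and 16.57 in HS. Heat stress animals thus included both the lowest and the highest CRP signals, and 13 of 18 lay below the TN mean of their breed. The difference was -0.47 ± 0.245 (log2, SE), with a 95% interval from -0.97 to 0.02 (adjusted p = 0.413, limma). CR minus LW was -0.10 ± 0.30 on this probe and not called (adjusted p = 0.838, 95% interval -0.71 to 0.50). The other 3 CRP probes gave positive CR minus LW values of 0.47, 0.48 and 0.78, none called, so the probes of CRP differed in sign. One of them, A_72_P010516, also went the other way under heat (0.23), while the paired spots gave -0.49 and -0.44.

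LBP, which hands bacterial lipopolysaccharide to CD14 and the TLR4 receptor, was lower in CR and F1 than in LW. The lowest, median and highest signals were 9.51, 9.88 and 10.30 in LW TN and 9.29, 9.98 and 10.53 in LW HS. In CR they were 8.81, 9.38 and 9.84 in TN and 8.11, 8.99 and 9.75 in HS. In F1 they were 9.34, 9.49 and 9.71 in TN and 8.11, 9.27 and 10.34 in HS. The LW medians were highest and that of CR HS lowest, with overlap between breeds. CR lay below LW by -0.73 ± 0.185 (fold 0.602, adjusted p = 0.00341), with 12 of 12 CR animals under the LW mean. F1 lay below LW by -0.55 ± 0.185 (fold 0.685, adjusted p = 0.0363), with 11 of 12 under it, and F1 minus CR was 0.19, not called (95% interval -0.19 to 0.56). The CR minus LW difference was -1.28, 0.22, -0.54, -1.46 and -0.79 within slides 1 to 5, so slide 2 ran the other way, and without slide 4 it was no longer called (-0.51). The F1 call was lost without slide 3, 4 or 5 and without each of 11 single animals, over a range of -0.79 to -0.38 in all alternatives tried. The HS minus TN difference of LBP was -0.20, with a 95% interval of -0.50 to 0.11.

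ITIH4 was lower in F1 on 4 of 5 probes and in CR on 2 of 5. On probe A_72_P164666 the LW animals had a lowest value, median and highest value of 11.17, 11.91 and 13.92. In CR these were 10.64, 11.29 and 12.09, and in F1 they were 10.79, 11.21 and 11.84. CR and F1 reached lower than LW and overlapped it, and LW TN animal 4 gave the highest signal of all. CR minus LW was -0.80 ± 0.201 (fold 0.574, adjusted p = 0.00323), with 11 of 12 animals below the LW mean. F1 minus LW was -0.83 ± 0.201 (fold 0.563, adjusted p = 0.00503), with all 12 below it. Within slides 1 to 5 the CR minus LW difference was -0.19, -0.06, -1.82, -0.77 and -0.43, negative on each, and without slide 3 the CR call was lost (-0.47).

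The other ITIH4 probes gave smaller differences in the same direction. Probe A_72_P232272 gave -0.60 ± 0.199 in CR (adjusted p = 0.023) and -0.66 ± 0.199 in F1 (adjusted p = 0.0194). Both calls of this probe were lost without slide 3 (-0.29 and -0.45) or slide 4 (-0.61 and -0.60), and within slide 2 its CR minus LW difference was 0.10. On the representative probe A_72_P706463, F1 minus LW was -0.44 ± 0.141 (adjusted p = 0.0284), and CR minus LW was -0.33 ± 0.141 and not called (adjusted p = 0.077). The F1 call on it was lost without LW TN animal 4, LW HS animal 3 or F1 HS animal 5 without slide 3 or 4, and without the 5 animals that stood apart. The values of LW on it ran from 16.80 through a median of 17.09 to 18.22, those of CR from 16.43 through 16.78 to 17.54, and those of F1 from 16.35 through 16.79 to 17.17. The 3 breeds overlapped broadly, with the CR and F1 medians close together. The HS minus TN values of the 5 ITIH4 probes over all breeds reached at most 0.08, and none was called. Within breeds they ran from -0.37 to -0.15 in LW, from 0.20 to 0.37 in CR and from -0.04 to 0.02 in F1. None of these was called either, nor was the interaction.

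ORM1, the alpha-1-acid glycoprotein that carries drugs and lipids, was lower in CR and F1 on 2 of 3 probes. Signals of the representative probe were 17.94, 18.06 and 18.46 in LW (lowest, median, highest). CR gave 17.14, 17.89 and 18.24, and F1 gave 17.38, 17.75 and 18.11. The LW minimum lay above the medians of both other breeds, though the ranges overlapped. CR minus LW was -0.30 ± 0.109 (adjusted p = 0.0397), with 10 of 12 animals below the LW mean. F1 minus LW was -0.35 ± 0.109 (adjusted p = 0.0234), with 11 of 12. A_72_P027731 gave -0.33 in CR (adjusted p = 0.0147) and -0.33 in F1 (adjusted p = 0.0212). The third probe, O577, was of opposite sign: 0.24 ± 0.0876 in CR (adjusted p = 0.0416) and 0.20 in F1 (adjusted p = 0.0991). Its LW animals ran from 8.80 through 9.11 to 9.43 and its CR animals from 8.98 through 9.40 to 9.76. The probes named for ORM1 thus differed in sign, but the strand of O577 was not determined, so its sign may not be that of ORM1 RNA. The CR call of the representative probe was lost without each of 11 single animals, without slide 1, 3, 4 or 5 (-0.15 without slide 5), and under 5 other settings, among them the scanner's processed signal (-0.30) and the authors' log2 table (-0.30). Its F1 call was lost with the processed signal (-0.26), the authors' table (-0.32) and median centring (-0.32). On O577 the CR call was lost without each of 14 single animals, without slide 2, 3 or 4, under median centring (0.19) and with no filter on dim probes (0.24), whereas A_72_P027731 lost its CR call without slide 4 or 5 only. With the scaled processed signal the latter probe gave larger differences, -0.65 in CR and -0.71 in F1.

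HP, which binds free haemoglobin for uptake through the macrophage receptor CD163, was lower in CR on 6 of 7 probes. These 6 were not independent measurements. O9209 and A_72_P178006 carry the same letters, and A_72_P581127 shares a run of 57 letters with both. The RefSeq probe and A_72_P657000 share a run of 32. On A_72_P568194, the probe with the largest difference, LW ran from 16.93 through a median of 17.31 to 17.64, and CR ran from 16.57 through 16.89 to 17.41. F1 ran from 16.92 through 17.19 to 17.37. CR animals were lowest, with F1 in between, and all 3 overlapped. CR minus LW was -0.39 ± 0.0835 (fold 0.766, adjusted p = 0.000863), with 11 of 12 CR animals below the LW mean and a negative value on all 5 slides (-0.65, -0.09, -0.25, -0.61 and -0.50). The 6 called probes ranged from -0.39 to -0.16. Of these, A_72_P581127 and O9209 lost the call without each of 23 and 14 single animals and without slide 1, 4 or 5. O9209 also lost it without slide 3. Both lost it with the processed signal, with the authors' log2 table and with no filter on dim probes. A_72_P178006 lost it with the processed signal and without slide 1, 4 or 5, and A_72_P657000 without slide 4 or 5. The A_72_P581127 call was also lost with slide as a block (-0.17), and within slide 3 its difference was 0.06. The representative probe, the brightest, gave -0.04 ± 0.0351 (adjusted p = 0.414). Its 36 values all lay between 18.55 and 18.85, at the top of the scale that quantile normalization assigns by rank.

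HPX, the haem-binding protein of plasma, was lower in CR on its single kept probe. Its values were 18.17, 18.25 and 18.53 in LW and 17.87, 18.16 and 18.38 in CR (lowest, median, highest). F1 gave 18.04, 18.19 and 18.36. Ranges overlapped, and 10 of 12 CR animals were below the LW mean. The difference was -0.15 ± 0.0517 (adjusted p = 0.0342) in CR and -0.10 in F1, not called (adjusted p = 0.195). Within slides 1 to 5 it was 0.02, 0.08, -0.12, -0.38 and -0.22, so it was negative on 3 of 5 slides. The call was lost without slide 3, 4 or 5, and without LW TN animal 4 or 5, LW HS animal 4, CR TN animal 5 or 6, or CR HS animal 6. It was also lost with the scanner's processed signal scaled to the 75th percentile (-0.10), with the authors' log2 table (-0.13) and without the 5 animals that stood apart (-0.14). The smallest difference was -0.09, without slide 4.

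CP, the copper-carrying ferroxidase, and ALB were not called in F1, and CP was not called in any comparison. CP signals ran from 15.84 through 16.26 to 16.49 in TN and from 16.02 through 16.32 to 16.71 in HS. The ranges overlapped, with 13 of 18 HS animals above the TN mean. Its HS minus TN difference was 0.10 ± 0.0583 (95% interval -0.02 to 0.22, adjusted p = 0.474). All 5 CP probes had a positive difference, from 0.10 to 0.19, and none was called. The representative ALB probe gave 0.00 for heat (95% interval -0.05 to 0.05) and -0.01 for CR minus LW, at the rank ceiling described for HP, with all values between 18.65 and 18.85. Of 22 ALB probes 1, A_72_P165481, was called in CR at -0.13 ± 0.0499 (adjusted p = 0.0484), a call kept under 21 of 51 alternatives. The call was lost without each of 22 single animals, without slide 1, 2, 3 or 4, and without the 5 animals that stood apart. It was also lost with the processed signal, with the authors' log2 table and with no filter on dim probes.

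Breed differences were more frequent among the members than heat differences. CR minus LW called 14 of 48 member probes (29.2%), where 26.5% of all probes were called, 13.6% higher and 12.9% lower. Of the 14, 1 was higher (ORM1 O577, its strand not determined) and 13 lower. HP gave 6 of the 13, among them probes that share letters. F1 minus LW called 7 of 48 (14.6%), all lower, where 18.3% of all probes were called (9.13% higher and 9.22% lower). The share of members called was thus near the background in both comparisons. The median difference over the 48 probes was -0.04 for CR minus LW and -0.05 for F1 minus LW. F1 minus CR called 0 of 48 (background 1.5%), and F1 against the mean of its parental breeds called 0 of 48 (background 1.13%), with 5 and 7 at an unadjusted p of 0.05, where 12.5% and 15.2% of all probes passed.

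Single slides and animals moved these counts. For CR minus LW, 7 member probes were called without slide 3, 3 without slide 4 and 7 without slide 5, and 8, 9 and 9 without LW HS animal 4, LW TN animal 5 and CR TN animal 6. For F1 minus LW, 1 was called without slide 3 and 1 without slide 4, and 4 without LW HS animal 3 or F1 HS animal 5. Without the 5 animals that lay apart on the first component, CR minus LW called 11 and F1 minus LW 7.

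**Figure D3:**
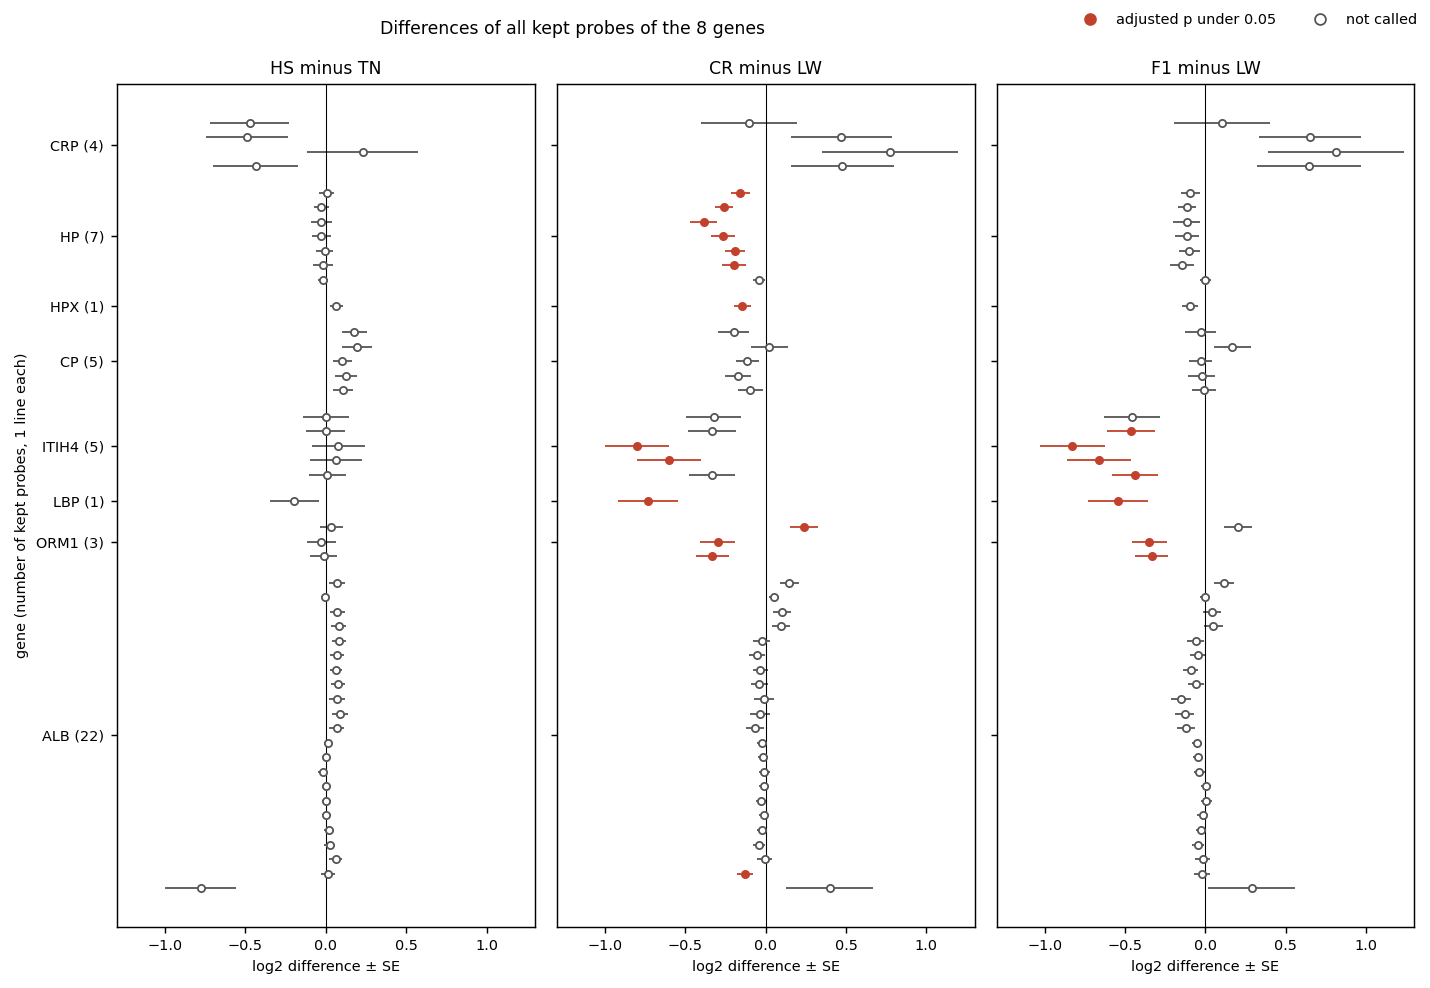
Log2 difference ± SE (x axis) of all 48 kept probes, grouped by gene with the number of probes, for HS minus TN, CR minus LW and F1 minus LW. Filled red points passed an adjusted p of 0.05. None is filled under heat, 14 are filled in CR and 7 in F1, and nearly all of those lie left of 0.

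The same breeds also differed in markers of other cell types, and their part in the member differences was not tested. Of 8 measured macrophage markers, 6 were lower in CR and 6 in F1, with animal means of 11.67 to 12.27 in LW, 11.09 to 11.53 in CR and 11.04 to 11.98 in F1. LW and CR did not overlap. Of 6 neutrophil markers 5 were lower in each breed (7.27 to 8.40 in LW, 6.86 to 7.50 in CR, 6.73 to 7.59 in F1), with MPO not kept. Of 8 lymphocyte markers 4 were lower in CR and 3 in F1, and of 4 endothelial markers 3 in each. Of 4 hepatocyte markers 1 was higher (HPD, 0.46) and 1 lower (FGB, -0.20) in CR, and 1 was higher and 1 lower in F1. FGB is also in the list of positive acute phase genes below. Of 4 bile duct markers, KRT7 was higher in CR (0.74), a share near that of all named genes, of which 25.9% were called in CR and 17.4% in F1. Neither the 4 erythroid nor the 5 stellate markers had a call, and no marker of any list was called by heat. In whole liver, fewer cells of a type and less RNA per cell cannot be told apart.

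Other positive acute phase genes were mostly lower in CR. Of 25 listed genes 23 were measured, and 12 were lower and 1 higher in CR, where 25.9% of all named genes were called. The median difference was -0.22, against -0.01 over all named genes. The lower genes included FGG, the fibrinogen gamma chain (-0.40 ± 0.0671, adjusted p = 5.54e-05), and SERPINA3, a protease inhibitor (-0.56 ± 0.128, adjusted p = 0.00137). FGG ran from 17.19 through a median of 17.43 to 17.59 in LW and from 16.70 through 17.03 to 17.29 in CR, so the ranges overlapped slightly. S100A12 (-1.13 ± 0.208) and S100A9 (-0.64 ± 0.131), calcium-binding proteins of neutrophils, are also among the neutrophil markers above. S100A9 signal was low, from 5.53 to 6.26 in CR and from 5.92 to 7.42 in LW. APCS, a pentraxin related to CRP, was the higher gene (0.51 ± 0.157, adjusted p = 0.014). The serum amyloid A genes SAA1, SAA2 and SAA3, chosen after their values were seen and so closely related that their probes may share signal, gave -1.43, -1.29 and -1.31 (adjusted p = 0.0356, 0.0458 and 0.0423). Their spread was wide, since SAA1 ran from 11.55 to 17.13 in LW and from 11.09 to 14.45 in CR. The count of 13 called genes was 6 without slide 3 and 6 without slide 4.

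In F1 the same list had 6 genes lower and 1 higher (30.4%, where 17.4% of all named genes were called). FGG (-0.25), SERPINA3 (-0.51), S100A9 (-0.53) and S100A12 (-0.91) were lower, and FGA, the fibrinogen alpha chain, was higher (0.26 ± 0.0926, adjusted p = 0.0452). This count of 7 was 4 without slide 2, 1 without slide 3 and 4 without slide 4. Heat called 1 gene of the list, where 0.937% of all named genes were called. It was HAMP, which encodes hepcidin, the hormone that lowers iron export. HAMP ran from 7.19 through a median of 8.84 to 15.16 in TN and from 8.30 through 14.39 to 16.84 in HS. The medians lay far apart and the ranges overlapped, at a difference of 3.70 ± 0.838 (adjusted p = 0.0246), and the call was lost without slide 1, 3, 4 or 5.

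**Figure D4:**
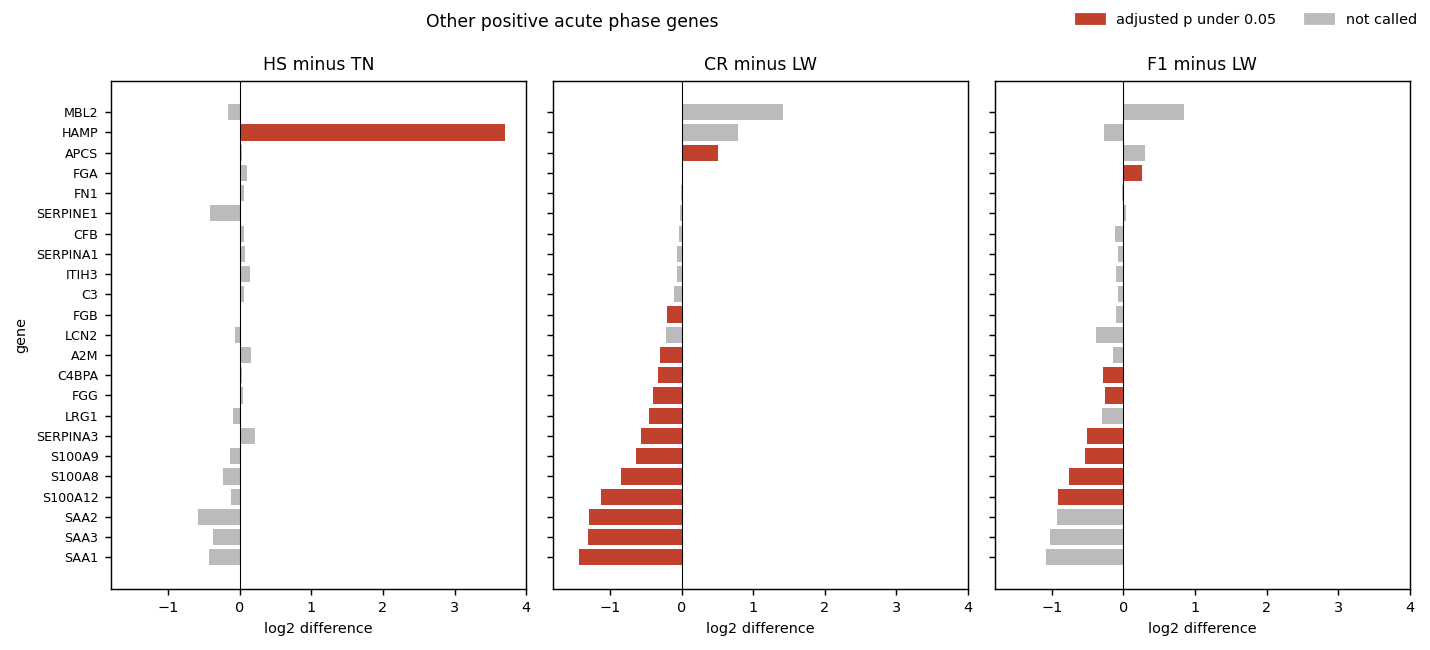
Log2 difference (x axis) of the representative probe of the 23 measured other positive acute phase genes (y axis, ordered by CR minus LW) for HS minus TN, CR minus LW and F1 minus LW. Red bars passed an adjusted p of 0.05, 1 under heat (HAMP), 13 in CR and 7 in F1, and grey bars did not.

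Genes of the negative arm were also lower in CR and F1 where called. Of 14 listed negative genes 12 were measured, and 5 were lower in CR (41.7%, where 25.9% of all named genes were called), with a median of -0.08. They included SERPINC1, which encodes antithrombin (-0.20 ± 0.0513, adjusted p = 0.00382), SERPINA7, the thyroxine-binding globulin (-0.28), GC, the vitamin D binding protein (-0.11), and APOA1, the main protein of high-density lipoprotein (-0.12). The count was 1 without slide 3, 1 without slide 4 and 2 or 3 without each of 16 single animals. SERPINC1 was lower in F1 too (-0.28 ± 0.0513, adjusted p = 0.000715), 1 of 12 where 17.4% of all named genes were called. SERPINA7 was higher in HS (0.38 ± 0.0747, adjusted p = 0.00931), where 0.937% of all named genes were called, and this call was lost without slide 3.

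The share of signalling genes called was near or below that of all named genes. Of 30 listed cytokine, receptor and transcription factor genes 27 were measured, and CR had 4 higher and 4 lower (29.6%, where 25.9% of all named genes were called). Higher were IL6ST, the gp130 receptor chain (0.39 ± 0.0879), IL1R1, the interleukin 1 receptor (0.52 ± 0.129), HNF4A, a hepatocyte transcription factor (0.36), and TYK2, a Janus kinase (0.16). Lower were PIAS3, an inhibitor of STAT3 (-0.30), CEBPB, the C/EBP beta factor (-0.45), NR3C1, the glucocorticoid receptor (-0.20), and JAK2 (-0.22). In F1, IL6ST (0.38) and IL1R1 (0.48) were higher and IL6 (-0.28) lower, 3 of 27 where 17.4% of all named genes were called. The F1 count of 3 was 0 without slide 3, 5 with slide as a block and 8 without the 5 animals that stood apart. Heat called 0 of 27 with limma, with 5 at an unadjusted p of 0.05, as had 1566 of all 11423 named genes. The CR count of 8 was 4 without slide 3, 5 without slide 4 and 5 without each of 7 single animals.

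Receptors and partners of the members were mostly lower in CR where called. Of 18 listed genes 15 were measured, and CR had 6 lower and 1 higher (46.7%, where 25.9% of all named genes were called), while F1 had 5 lower (33.3%, where 17.4% were called). CD163 ran from 12.63 through 13.22 to 13.58 in LW, from 11.56 through 12.04 to 12.44 in CR and from 12.04 through 12.34 to 12.92 in F1. LW and CR did not overlap, at a difference of -1.15 ± 0.115 (adjusted p = 1.86e-08), and CD163 is also 1 of the macrophage markers. LY96 (-0.89 ± 0.0976) and TLR4 (-0.97 ± 0.150), the lipopolysaccharide receptor pair served by LBP, and FCGRT, which recycles albumin and immunoglobulin (-0.20 ± 0.0510), were lower as well. BLVRB, a biliverdin reductase, was higher in CR (0.28 ± 0.0815) and lower in HS (-0.28 ± 0.0666, adjusted p = 0.0372), the only heat call of this list. This heat call was lost when any single slide was left out and without each of 14 single animals. Without slide 4 the CR count of 7 was 4.

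Some members correlated across animals of a group. After group means were removed, 9 of 28 pairs of representative probes passed an adjusted p of 0.05 over 36 animals (100000 permutations within groups, two-sided), and all 9 were positive. The pair with the highest r was CRP and ITIH4 (r = 0.60, adjusted permutation p = 0.00672, and rho = 0.61, adjusted permutation p = 0.00994). It remained at r = 0.56 without the 2 animals farthest on CRP, and within slides 2 to 5 it was 0.86, 0.58, 0.68 and 0.03 (slide 1 held 4 animals). HPX and ITIH4 gave r = 0.56 (rho 0.55, and 0.95, 0.52, 0.14 and 0.45 within slides). ITIH4 and ORM1 gave r = 0.56 (rho 0.56, and 0.93, -0.03, 0.93 and 0.65 within slides). HP and HPX gave r = 0.56 (rho 0.42, and 0.71, 0.53, 0.69 and 0.64 within slides), which did not pass on rho or without the 2 farthest animals. HP with ORM1 (0.54), CRP with HP (0.51), HPX with ORM1 (0.51), CRP with LBP (0.48) and CRP with HPX (0.44) completed the 9, with values within slides 2 to 5 ranging from -0.45 (CRP with LBP on slide 5) to 0.86. Without the 2 farthest animals CRP with LBP no longer passed either. No pair with CP or ALB passed. Removing slide means left 5 pairs, and within TN alone 0 pairs and within HS alone 3 pairs passed.

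Pairs with ALB, and some of the pairs that passed above, depended on the scaling. When the scanner's processed signal was scaled by the 75th percentile of its own array, HP and ALB went from r = -0.23 to 0.91, HPX and ALB to 0.73 and ORM1 and ALB to 0.64, and 10 of 28 pairs passed. CRP with HP fell from r = 0.51 to 0.23 (adjusted permutation p = 0.333), and CRP with HPX from 0.44 to 0.39 (adjusted permutation p = 0.0782), so neither passed. HP with HPX and HP with ORM1 gave 0.79 and 0.72 with that scaling. The representative probes of HP and ALB are those at the rank ceiling described above. On the HP probe the SD between animals of a group was 0.039 to 0.097, where paired spots of another HP sequence differed by an SD of 0.0643. The coordinated variation of ALB and of HP with other members, and of CRP with HPX, is therefore not settled here.

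**Figure D5:**
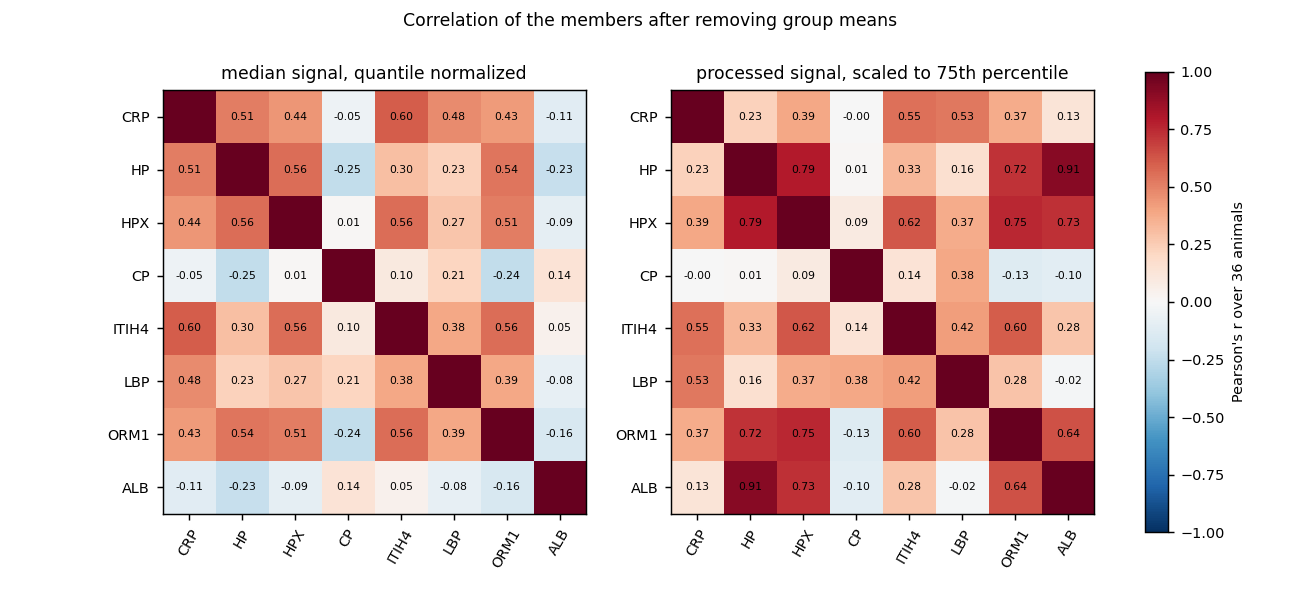
Pearson's r between the 8 representative probes over 36 animals after removing the 6 group means, with quantile-normalized median signal (left) and with processed signal scaled to the 75th percentile (right), each square holding its r and red standing for positive values. CRP and ITIH4 gave 0.60 and 0.55, and HP and ALB gave -0.23 and 0.91.

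For each member the 3 symbols with the highest r over the 36 animals, group means removed, were sought among 11397 other symbols. They are given as a description with no test, since they are the highest of many. ITIH4 was nearest to FGL1, a fibrinogen-like hepatokine (r = 0.81), to the complement gene C2 (0.73) and PRCP (0.71). HPX was nearest to VTN, vitronectin (0.77), GFI1B (0.76) and F2, prothrombin (0.73). LBP was nearest to GJA4 (0.76) and IGF2 (0.66), ORM1 to POLR3A (0.92), HP to PPP1R15B (0.74), CRP to OXNAD1 (0.66), CP to DNMT1 (0.66) and ALB to KIAA1432 (0.62).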

How the data were processed

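The deposited Agilent files hold scanner intensity per spot, and per the labels Feature Extraction 10.10.1.1 and limma were used. The authors also deposited a log2 table of 42051 probes, used as an alternative. Here, log2 median intensity was quantile normalized over 60306 spots that were not controls (107 nonuniform spots dropped), repeated probes were averaged, and 44796 of 60305 probes well above background on at least 6 arrays were kept. Symbols came from the files and RefSeq (Sscrofa11.1). limma 3.58.1 in R 4.3.3 fitted breed plus temperature over all 36 arrays, and a means model of the 6 groups gave within-breed and interaction tests, with Benjamini-Hochberg adjustment over all kept probes at 0.05. A gene's representative probe was its kept probe with the highest mean. Member probes, up to 4 called genes per list, direction and comparison, and the 3 symbols most like each member were named. The fits were tested on simulated data. Members and lists were chosen with earlier results of these data known. The number of arrays limits the precision. Pen, parents and slaughter day, which the authors modelled as random effects, are not in the labels. Scaling, filter, background correction (normexp, offset 50), slide block, array weights, median centring and leaving out animals or slides were alternatives.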

Additional observations from a re-analysis of the deposited data

Results flagged for a closer look

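In 132 sets of 6 animals (22 member probes in 6 groups), 15 had an animal far from the other 5, its gap to the nearest being over 0.625 of the whole range. Chance flags about 1 in 20 sets, and probes of a gene and shared animals make these flags overlap. For CRP probe A_72_P010516, LW HS animal 4 (9.78) and LW TN animal 1 (10.81) were highest. For HPX, LW HS animal 4 was highest (18.53), and ALB probe A_72_P517168 was lowest in the same animal (10.46). In ALB probe A_72_P165481 animals 5 of F1 HS (17.90) and F1 TN (17.84) were lowest. LW HS animal 2 was lowest on HP probes A_72_P178006 (17.90) and A_72_P657000 (17.76), and F1 HS animal 2 on HP probe O9209 (17.72). CR TN animal 1 was highest on HP A_72_P568194 (17.41), on the ITIH4 representative probe (17.54) and on the ITIH4 RefSeq probe (17.28). On the ITIH4 representative probe, LW TN animal 4 was also highest of its group (18.22). CP was highest in F1 HS animal 1 (16.71) and LW HS animal 6 (16.70). No interaction was called, and no member probe had all 6 HS animals of a breed above its TN mean and all 6 of another breed below it.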

How the results depend on the processing

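No paired analysis was possible because replicate numbers were given in accession order and only name the animals. Of the comparisons, HS minus TN, the within-breed heat tests and the interaction called 0 member probes under every alternative run. For CR minus LW (main count 14) no filter on dim probes gave 9, one value per gene symbol 4 of 8, and leaving out slide 3, 4 or 5 gave 7, 3 and 7, while leaving out single animals gave 8 to 14. For F1 minus LW (main count 7) one value per symbol gave 2 of 8, slides 3 and 4 left out gave 1 each, and single animals gave 4 to 9. F1 minus CR gave 1 without slide 2 and 0 to 1 without single animals. F1 minus mid-parent gave 3 without the 5 animals that lay apart, an alternative chosen after seeing the data. Of 9 correlated pairs, 5 remained with slide means removed, 0 within TN and 3 within HS. No result called in either setting changed sign. CP, not called in CR by the main analysis, was called with the authors' log2 table (-0.17) and with median centring (-0.22). Among results for single genes and lists 182 were weaker, 6 stronger, 81 moved, and 2342 were taken as the same. Counts were the same within 1.5 times, and tests when they kept direction and side of the threshold. Where neither setting was called, a changed sign was also taken as the same if the shift was under 1 SD between animals. CRP probe O13103, for example, ran from -0.21 to 0.06 in CR minus LW without single animals. CR calls of HP probes A_72_P568194 and the RefSeq probe were kept under all 51 alternatives, HPX under 39 and ORM1 A_72_P247587 under 31. Leaving out slide 3 or slide 4 lowered most of these counts, and the cause was not tested. Low signal limited HPX O2842, HP A_72_P339893 and MPO, which were not kept. ORM1 A_72_P027731 was kept at a low signal (mean 5.73).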

Other observations

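On ALB probe A_72_P517168, 17 of 18 HS animals lay below the TN mean of their breed. Its lowest, median and highest signals were 12.62, 13.67 and 14.35 in TN and 10.46, 13.12 and 13.74 in HS. The difference of -0.78 was the largest of any member probe under heat, was not called (adjusted p = 0.0772, limma), and was not shared by the other 21 ALB probes, which lay between -0.02 and 0.09.

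On HP probe A_72_P568194, HS minus TN was 0.22 within LW, -0.16 within CR and -0.14 within F1. It was the only member probe to pass the unadjusted threshold for the interaction, and it did not pass after adjustment (adjusted p = 0.995, limma).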
